A study of Mus musculus with 6 samples.

Results

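The heterotetrameric adaptor AP-1 is encoded in the mouse by 8 subunit genes, Ap1b1, Ap1g1, Ap1g2, Ap1m1, Ap1m2, Ap1s1, Ap1s2 and Ap1s3. These 8 genes were taken by symbol from the 24214 features of the deposited count tables, and their levels in 393P_ZEB1 cells were set against those in 393P_vector cells. The genes were chosen with these RNA sequencing counts in view, including the comparison of the ubiquitous mu subunit with the epithelial one. The values of the 8 genes in this contrast are therefore given as a description, without p-values. All 8 genes passed the filter on low counts. The libraries came from the 393P line, a murine epithelial lung adenocarcinoma (LUAD) labelled as KP lung cancer cells of strain C57BL/6, grown in RPMI-1640 with 10% serum. In 3 samples the cells were transfected with an expression vector for ZEB1 (393P_ZEB1), a zinc-finger repressor that activates epithelial-to-mesenchymal transition (EMT), and in 3 samples with the empty vector (393P_vector). Transfectants were selected as stable lines with an antibiotic, and neither the promoter that drives ZEB1 nor the number of clones is given in the sources used here. The labels do not say whether the 3 samples of a group came from separate cultures, so SDs and p-values measure only the spread between these samples, which may be technical.

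AP-1 works at the trans-Golgi network and on endosomes, where it binds sorting signals in the cytosolic tails of transmembrane cargo and recruits clathrin to form transport vesicles. Each complex is built of a beta and a gamma chain, which are large, a medium mu chain and a small sigma chain. The beta and gamma chains bind clathrin and accessory proteins, the mu chain reads tyrosine-based signals, and sigma together with gamma reads dileucine-based signals. The mu position can be filled by mu1A, encoded by Ap1m1 in nearly all cells, or by mu1B, encoded by Ap1m2 in polarized epithelial cells, where it sends cargo to the basolateral membrane.

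Total counts ranged from 54442450 to 79158012 per sample, and 13892 genes passed the filter. Levels are given as RPKM, the count divided by exon length and by the TMM-scaled library size, so that genes of different length can be compared. Zeb1 itself was at 3.65, 3.80 and 3.69 RPKM in the 393P_vector samples and at 9.46, 8.43 and 8.84 RPKM in the 393P_ZEB1 samples, where reads from the introduced cDNA may be included. Of 12 epithelial markers, 12 were lower in 393P_ZEB1 cells in edgeR's quasi-likelihood test (adjusted p below 0.05), with log2 fold changes between -8.01 for Rab25 and -0.61 for Krt8. Of 8 mesenchymal markers, 6 were higher, a count that includes the introduced Zeb1 itself (log2 fold change 1.26). Cdh2 and Twist1 were higher by log2 fold changes of 2.04 and 2.21, and Zeb2, Fn1 and Vim by 0.80, 0.56 and 0.41. Snai1 and Snai2, with 0.27 and -0.03, did not pass. Of all tested genes, 18.3% were called higher and 19.3% lower. The summed level of 5 immune markers was between 0.0914 and 0.233 RPKM in all 6 samples, and that of 6 fibroblast markers was between 0.413 and 0.588 RPKM in 393P_vector and between 0.273 and 0.329 RPKM in 393P_ZEB1 samples. The sum of 4 endothelial markers was between 0.470 and 0.498 RPKM in 393P_vector and between 0.144 and 0.188 RPKM in 393P_ZEB1 samples. The part of these low marker levels in the subunit differences was not tested. 393P_vector replicate 3 stood apart, with 8.98% and 9.93% of tested genes at least 2-fold away from replicates 1 and 2, against 2.77% between those replicates and 3.38% to 3.83% within 393P_ZEB1. The values of several subunits are also given without this library.

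The epithelial mu subunit was 37.2-fold lower in 393P_ZEB1 cells, while the ubiquitous mu subunit was higher there. Ap1m2 was at 10.7, 11.2 and 11.5 RPKM in the 393P_vector samples and at 0.444, 0.219 and 0.237 RPKM in the 393P_ZEB1 samples. All 3 ZEB1 samples thus lay far below all 3 vector samples, and the vector samples hardly differed among themselves, replicate 3 included. The means were 11.2 ± 0.434 RPKM (SD, n = 3) and 0.300 ± 0.125 RPKM (SD, n = 3). On the log2 scale the fitted change of Ap1m2 was -5.22 (standard error 0.27), and 1.01% of the 13892 tested genes had a change at least as low. The underlying reads were 1045, 1141 and 1657 counts in 393P_vector and 41, 21 and 25 counts in 393P_ZEB1, so the lower level was counted less precisely but stayed above the 3 counts taken as the detection floor. In bulk RNA, fewer cells with Ap1m2 and less Ap1m2 RNA in each cell cannot be told apart. The authors' tables also list how many exons of a gene held more than 10 reads. For Ap1m2 this was 12 of 12 exons in each 393P_vector sample, and 1, 0 and 1 exons in the 393P_ZEB1 samples.

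Ap1m1, the ubiquitous counterpart, was at 27.3, 29.5 and 29.8 RPKM in 393P_vector and at 40.1, 40.2 and 40.3 RPKM in 393P_ZEB1 samples. The groups did not overlap, and the 3 ZEB1 samples were nearly identical. The mean level was 28.9 ± 1.37 RPKM (SD, n = 3) against 40.2 ± 0.105 RPKM (SD, n = 3), 1.39-fold higher with ZEB1, and the log2 change was 0.48 (standard error 0.09). All 12 exons of Ap1m1 held more than 10 reads in each of the 6 samples. Ap1m1 lies on the plus strand of GRCm38 chr8:72240132-72257379 and Ap1m2 on the minus strand of chr9:21295457-21312333, and neither interval overlaps another listed feature. The mu genes are related in sequence, and how reads that match both were counted is not given in the sources used here.

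**Figure D1:**
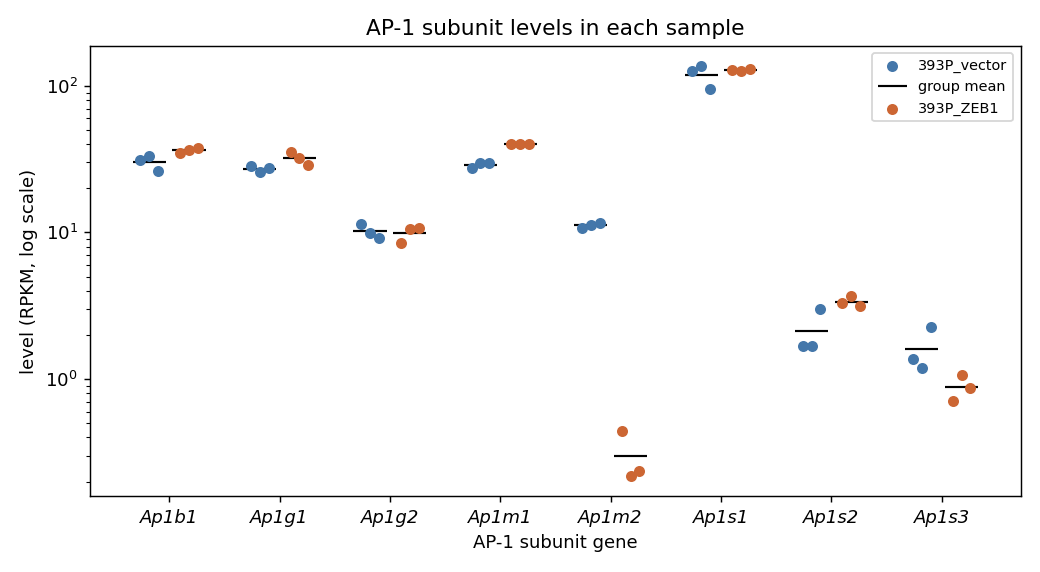
Level of each AP-1 subunit gene in each sample (RPKM, log scale), with 393P_vector in blue, 393P_ZEB1 in orange and the group mean as a black line. Ap1m2 drops from about the level of Ap1g2 to the lowest level of any subunit, while the other 7 genes move by much less.

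The makeup of the mu position followed from these levels. Ap1m2 made up 28.1%, 27.5% and 27.9% of the summed RPKM of both mu genes in the 393P_vector samples, and 1.09%, 0.542% and 0.585% in the 393P_ZEB1 samples. Ap1m1 was thus 2.56, 2.63 and 2.58 times as abundant as Ap1m2 in 393P_vector, and 90.4, 184 and 170 times as abundant in 393P_ZEB1. The sum over both genes was close in the 2 groups, at 40.1 ± 1.79 RPKM (SD, n = 3) in 393P_vector and 40.5 ± 0.0791 RPKM (SD, n = 3) in 393P_ZEB1. The epithelial mu share was therefore lower by 27.1 percentage points, while the total level of mu transcripts differed by less than the spread between the 393P_vector samples. These are shares of RNA, and the makeup of the assembled complexes was not measured in these libraries.

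**Figure D2:**
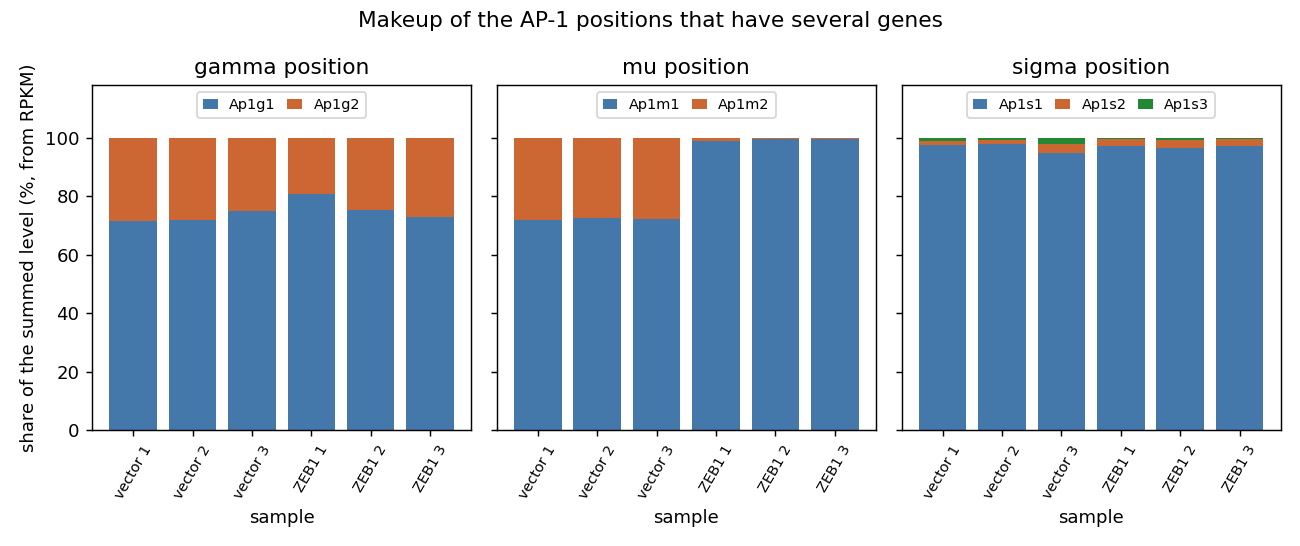
Share of each gene in the summed level (RPKM, in %) of the gamma, mu and sigma positions of AP-1, with 1 stacked bar per sample. The Ap1m2 share of the mu position is near 28% in the 3 vector samples and near 1% in the 3 ZEB1 samples, while the gamma and sigma positions keep the same leading gene in all 6 samples.

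ZEB1 is known to bind the E-box CACCTG. The letters CACCTG were therefore looked for, on both strands (CAGGTG on the other strand), in the 250 bases before the annotated RefSeq start of each gene (GRCm38.p6). A window was found for 7 of the 8 subunit genes, and none for Ap1m1. The Ap1m2 window, on the minus strand of chr9:21312334-21312583, held 4 matches and is shown because none of the other 6 windows held more than 1. The capitals mark the matches and the sequence is read 5′ to 3′ toward the start site.
Ap1m2 upstream: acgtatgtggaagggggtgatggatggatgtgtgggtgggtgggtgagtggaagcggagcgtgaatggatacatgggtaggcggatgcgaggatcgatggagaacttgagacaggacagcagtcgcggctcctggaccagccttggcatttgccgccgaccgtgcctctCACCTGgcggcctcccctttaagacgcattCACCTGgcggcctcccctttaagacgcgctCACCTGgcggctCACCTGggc

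The 4 matches began 81, 51, 21 and 9 bases before the start of Ap1m2, and all 4 were on the gene's own strand. The first 3 were spaced by 30 bases. A 28-base stretch occurs there in 2 copies at an offset of 30 bases, which hold the matches at 81 and 51, while those at 21 and 9 lie outside both copies.
Repeated stretch: tCACCTGgcggcctcccctttaagacgc
Of all 32851 upstream windows in the RefSeq table, 17.2% held at least 1 match, 2.06% at least 2, and 0.0426%, or 14 windows, at least 4. Ap1g1 had 1 match, on the opposite strand and beginning 111 bases before its start, and Ap1g2 had 1 match, beginning 177 bases before its start. In the windows of Ap1b1, Ap1s1, Ap1s2 and Ap1s3 the letters did not occur. The Ap1b1 window, chr11:4986574-4986823, lies inside the interval in which Ap1b1 reads were counted, chr11:4947521-5042794. The bases before the start of that interval were therefore not searched. Among tested genes with a window, 5 had 4 or more matches. Besides Ap1m2 these were Tmem30b, 1810019D21Rik, Pus7 and Lsr, with log2 fold changes of -4.91, -1.33, -0.22 and -0.14, of which Tmem30b and 1810019D21Rik passed the threshold (adjusted p = 0.000377 and 0.00892 from edgeR). Tested genes with no match passed the threshold as lower in 18.1% of cases, those with 1 match in 23.1% and those with 2 or 3 in 28.4%. They passed it as higher in 17.3%, 17.1% and 22.0% of cases. These counts describe letters in a window, and binding was not measured in these libraries.

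The large chains were close to level between the groups. Ap1b1, which encodes the beta1 chain, was at 31.4, 32.9 and 26.2 RPKM in 393P_vector and at 35.0, 36.3 and 37.7 RPKM in 393P_ZEB1 samples. The ZEB1 samples were all above the vector samples, with 393P_vector replicate 3 lowest, and the log2 change was 0.27 (standard error 0.11), or 0.17 without that replicate. Ap1b1 lies on chromosome 11, where the median log2 change of the other 1155 tested genes was 0.26, so its difference from the chromosome was 0.003. Its interval overlaps that of Nefh, on the other strand, at its 5′ end, and whether counting used strand is not given in the sources used here.

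Ap1g1, the ubiquitous gamma1 chain, was at 28.4, 25.7 and 27.5 RPKM in 393P_vector and at 35.5, 32.4 and 29.0 RPKM in 393P_ZEB1 samples. The groups were separate, though by a small margin, and the log2 change was 0.25 (standard error 0.11). Ap1g2, which encodes the gamma2 chain, was at 11.4, 9.98 and 9.19 RPKM in 393P_vector and at 8.51, 10.6 and 10.8 RPKM in 393P_ZEB1 samples. These values overlapped, and the log2 change of -0.029 was smaller than its standard error of 0.14. The direction for Ap1g2 turned with the left-out library, to 0.062 without 393P_vector replicate 1 and 0.078 without 393P_ZEB1 replicate 1. Ap1g2 made up 27.2% ± 1.89 (SD, n = 3) of gamma transcripts in 393P_vector and 23.7% ± 3.95 (SD, n = 3) in 393P_ZEB1, a difference within the spread of the samples. The Ap1g1 interval contains the small nucleolar RNA Snord71, and the end of Ap1g2 overlaps Thtpa.

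The sigma position was filled almost wholly by Ap1s1 in both groups. Ap1s1, the ubiquitous sigma1A chain, was the most abundant subunit transcript, at 125, 136 and 95.7 RPKM in 393P_vector and at 129, 126 and 129.6 RPKM in 393P_ZEB1 samples. The groups overlapped, and 393P_vector replicate 3 alone lay low. The log2 change of Ap1s1 was 0.11 (standard error 0.14) and turned to -0.025 without that library. Its share of sigma transcripts was 96.8% ± 1.74 (SD, n = 3) in 393P_vector and 96.8% ± 0.356 (SD, n = 3) in 393P_ZEB1.

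Ap1s2, which encodes sigma1B and is mutated in an X-linked intellectual disability, was the more abundant of the minor sigma chains in every sample of both groups. It was at 1.67, 1.68 and 2.99 RPKM in 393P_vector and at 3.29, 3.66 and 3.13 RPKM in 393P_ZEB1 samples. Every ZEB1 sample exceeded every vector sample, but 393P_vector replicate 3 came within a short distance of the lowest ZEB1 sample. Against the mean of replicates 1 and 2, replicate 3 was 1.79 times as high and the ZEB1 mean 2.01 times as high. Ap1s3, the sigma1C chain, was at 1.37, 1.18 and 2.28 RPKM in 393P_vector and at 0.703, 1.07 and 0.867 RPKM in 393P_ZEB1 samples. Here the vector samples were all higher, and replicate 3 again stood 1.78 times above the mean of the other vector samples. Its log2 change of -0.88 (standard error 0.29) was opposite in sign to that of Ap1s2, 0.67 (standard error 0.25). Relative to all sigma transcripts, Ap1s2 went from 1.82% ± 0.985 (SD, n = 3) to 2.53% ± 0.233 (SD, n = 3), and Ap1s3 from 1.39% ± 0.757 (SD, n = 3) to 0.665% ± 0.145 (SD, n = 3). For both genes the vector spread is nearly all due to replicate 3. Without that replicate the log2 change was 1.00 for Ap1s2 and -0.54 for Ap1s3, and the share differed by 1.28 percentage points for Ap1s2 and by -0.297 points for Ap1s3, beside 0.712 and -0.729 with it.

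Within the 393P_vector group, replicate 3 did not differ from the others in the same way for all subunits. In replicate 3, Ap1s1 was 0.733 times and Ap1b1 0.815 times the mean of replicates 1 and 2, while Ap1m1 and Ap1m2 were 1.05 times that mean. Ap1s2 and Ap1s3 were 1.79 and 1.78 times that mean, and Ap1g1 and Ap1g2 1.02 and 0.861 times. Several epithelial markers also differed in this library, with Cdh1 at 1.80 times, Epcam at 1.97 times, Cldn7 at 0.459 times and St14 at 0.594 times the mean of the other vector samples. The part that the state of replicate 3 has in the subunit differences was not tested.

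Taking the 8 genes as a list, 3 were past the threshold of the fit over all genes, Ap1m1 as higher and Ap1m2 and Ap1s3 as lower, which is 37.5%. Of all tested genes, 37.6% were past it (18.3% higher and 19.3% lower), and since the genes were chosen on this contrast, nothing is read from the count. The groups did not overlap for 6 of the 8 genes, where the background is 52.8%. The median log2 change over the 8 genes was 0.18, beside -0.02 over all tested genes. Ap1s3 was close to the threshold, and it was lost when any of 393P_vector replicate 1 and 393P_ZEB1 replicates 1 to 3 was left out, when at least 10 counts were required in every sample, and when the replicate number entered as a block. Without 393P_vector replicate 3, 5 of the 8 genes were past the threshold, with Ap1g1 and Ap1s2 added, where the background was 53.0%. By the DESeq2 Wald test on all samples, 4 of the 8 genes were past it, with Ap1s2 added. The background was not computed for that test. Ap1m1 and Ap1m2 were past it in all 11 alternatives. These alternatives refit the same libraries on the contrast that was used to choose the genes, so they are a description and no independent support.

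The subunit genes lie on 7 chromosomes, and genes of some chromosomes were shifted together between the lines. The medians of the other tested genes were -0.26 on chromosome 14, -0.14 on chromosome 9, -0.07 on chromosome X, -0.05 on chromosome 8, 0.06 on chromosome 1, 0.07 on chromosome 5 and 0.26 on chromosome 11. Relative to its chromosome, Ap1m2 was lower by a log2 difference of -5.08 and Ap1s3 by -0.94. The difference was 0.73 for Ap1s2, 0.52 for Ap1m1, 0.29 for Ap1g1, 0.24 for Ap1g2 and 0.04 for Ap1s1. The subtraction turned the sign for Ap1g2 and left Ap1b1 at its chromosome median, where its sign turned with the setting (-0.087 without 393P_vector replicate 3). For Ap1s1 the difference was -0.11 without that library.

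**Figure D3:**
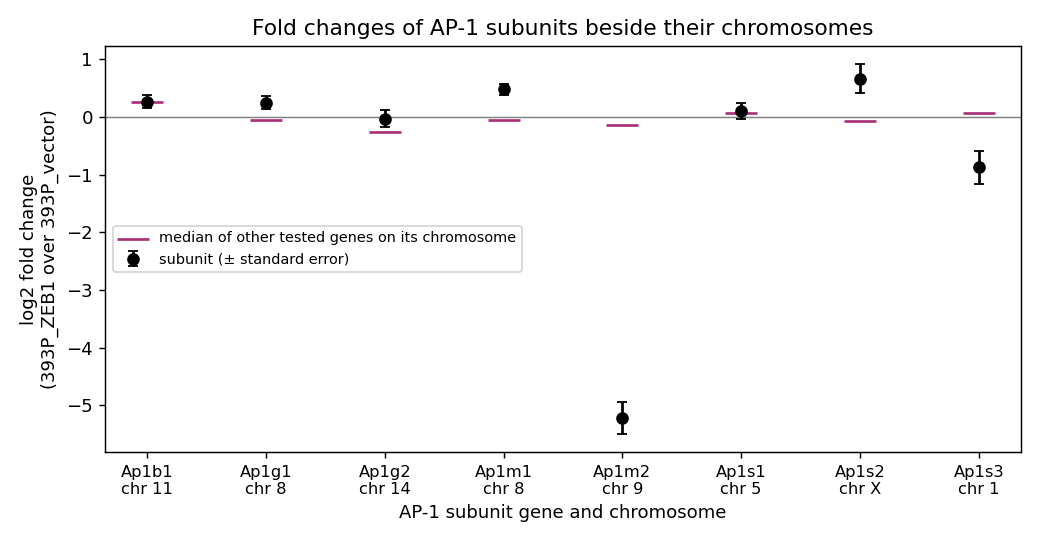
Fitted log2 fold change of each AP-1 subunit gene (393P_ZEB1 over 393P_vector, points with standard error) beside the median of the other tested genes of its chromosome (purple dash). Ap1m2 lies at -5.22 with its chromosome median at -0.14, and Ap1b1 lies on its chromosome median of 0.26.

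ZEB1 and the miR-200 microRNAs repress each other in EMT, so the 3′ untranslated regions of the 8 subunits were searched for matches to the miR-200 seeds. The mature sequences are from RefSeq (GRCm38.p6), with the seed (bases 2 to 8) in capitals. They fall into 2 seed groups, of which 1 member each is shown.
mmu-miR-200b-3p: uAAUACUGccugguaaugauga
mmu-miR-200a-3p: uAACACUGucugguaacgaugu
In GENCODE M21, 2 of the 8 genes held a match in any coding transcript, against 32.0% of 12005 tested genes with an annotated 3′ untranslated region. Each is shown within a short window, with the bases that pair with the seed in capitals.
Ap1s2 match to the miR-200b seed: tgatgtcttgtCAGTATTactgttttgct
Ap1m1 match to the miR-200a seed: cttgaccacatCAGTGTTttctcagaagg
The Ap1s2 match is followed by an A (an 8mer) and lies on the plus strand of chrX:163932280-163932286, outside the interval in which Ap1s2 reads were counted. The Ap1m1 match is a 7mer on the plus strand of chr8:72257239-72257245, in the last part of the counted interval. The log2 changes of these genes were 0.67 and 0.48. Of the 6 subunits with no match, Ap1b1, Ap1g1 and Ap1s1 had values above 0, and Ap1g2, Ap1m2 and Ap1s3 had values below 0. Among these 6, Ap1g1 has the longest annotated 3′ untranslated region, 4009 bases, and it held no match to either seed. These are matches of letters, and the part of the miR-200 microRNAs in the subunit differences was not tested.

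The related trafficking genes show whether the subunits of other adaptors differed as well. Of 19 tested subunits of AP-2, AP-3, AP-4 and AP-5, 4 rose and 1 fell in 393P_ZEB1 cells (adjusted p below 0.05 from edgeR). Of all tested genes, 18.3% were called higher and 19.3% lower, or 37.6% together. The log2 changes of the 19 subunits lay between -0.69 and 1.33, so that none came near the change of Ap1m2. AP-2, the plasma membrane adaptor of endocytosis, had 0 of 5 subunits past the threshold, with 0 of 5 by edgeR at an unadjusted p below 0.05 and 0 of 5 by DESeq2. Its mu chain Ap2m1 was at 14.1 ± 1.05 and 16.3 ± 1.19 RPKM (SD, n = 3) in vector and ZEB1 cells, and its sigma chain Ap2s1 at 74.2 ± 5.56 and 68.8 ± 8.02 RPKM (SD, n = 3). In AP-3, which serves lysosomes and related organelles, the sigma chain Ap3s1 rose from 2.09 ± 0.609 to 5.28 ± 0.138 RPKM (SD, n = 3), a log2 change of 1.33 (adjusted p = 0.0023 from edgeR). Ap3s1 lies on chromosome 18. Ap3b1 rose and Ap3d1 fell, with log2 changes of 0.43 and -0.54 and calls that held in 8 and 7 of the 11 alternatives. The other mu and sigma chains of AP-3 (Ap3m1, Ap3m2 and Ap3s2) had log2 changes of -0.40, -0.06 and 0.12 and did not pass. Without 393P_vector replicate 3 those of Ap3m1 and Ap3s2 turned, to 0.033 and -0.029. The AP-4 mu chain Ap4m1 rose by a log2 change of 0.90, and in AP-5 Ap5z1 rose by 0.58, both named after their values were seen. The call of Ap4m1 held in all 11 alternatives and that of Ap5z1 in 5.

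Over all 11 lists of related genes, 87 were tested, of which 20 rose and 13 fell, or 37.9%, close to the background of 37.6%. Of these 33 calls, 17 held in all 11 alternatives. The number of calls went up to 57 without 393P_vector replicate 3, where the background was 53.0%. It came down to 21, 18 and 18 without 393P_ZEB1 replicates 1, 2 and 3, where the background was not computed. Nothing about these genes in particular is read from the changes in number. None of 5 tested clathrin and uncoating genes passed (0 by edgeR, with 1 at an unadjusted p below 0.05 and 1 past the threshold by DESeq2), and the heavy chain Cltc had a log2 change of 0.35. Of 3 GGA adaptors, monomeric adaptors of the trans-Golgi network, Gga2 rose. A list for membrane recruitment held 11 genes: ARF GTPases, their exchange factors and phosphatidylinositol 4-kinases in general. Of these, 2 rose (the kinases Pi4k2b and Pi4ka) and 1 fell (the ARF exchange factor Arfgef1). The kinases Pi4k2a and Pi4kb had log2 changes of 0.15 and 0.26 and did not pass. Arf1, which loads AP-1 onto membranes, had a log2 change of 0.36 and did not pass.

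Of 15 AP-1 accessory proteins, 3 rose and 3 fell. Kif13a, a kinesin that binds the beta chain of AP-1, rose from 7.33 ± 1.26 to 13.1 ± 1.23 RPKM (SD, n = 3), with a log2 change of 0.84 (adjusted p = 0.00368 from edgeR). Aftph and Rabep1, which bind the gamma ear, rose by 0.45 and 0.35 on the log2 scale, with calls that held in 10 and 4 of the 11 alternatives. Ap1ar, the gadkin that links AP-1 to a kinesin, fell from 45.7 ± 10.6 to 30.7 ± 2.23 RPKM (SD, n = 3), with a log2 change of -0.58 (adjusted p = 0.03 from edgeR), a call that was lost without any of the 3 ZEB1 samples. Necap1 fell from 23.8 ± 5.32 to 11.9 ± 1.08 RPKM (SD, n = 3), and Heatr5a fell with a log2 change of -0.71.

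Of 9 cargoes sorted between the trans-Golgi network and endosomes, 2 rose and 4 fell. The sorting receptor Sorl1 fell from 1.62 ± 0.106 to 0.275 ± 0.0199 RPKM (SD, n = 3), with a log2 change of -2.56. Igf2r, the large mannose 6-phosphate receptor, fell from 34.6 ± 5.87 to 12.1 ± 0.643 RPKM (SD, n = 3), with a log2 change of -1.51 (adjusted p = 0.000141 from edgeR). Furin and M6pr fell, and Sort1 and Cpd rose. The call of Furin held in all 11 alternatives, that of M6pr in 5, that of Sort1 in 4 and that of Cpd in 6. Among 6 tested basolateral cargoes, Cdh1, the epithelial cadherin, fell from 36.9 ± 13.9 to 2.16 ± 0.163 RPKM (SD, n = 3), with a log2 change of -4.09. The growth factor receptor Egfr rose, with a log2 change of 0.61, and the transferrin receptor Tfrc, with -0.13, did not pass. Of 19 genes of the basolateral delivery machinery, 7 rose and 2 fell. Rab13, a GTPase of junctional traffic, rose most, from 12.1 ± 1.72 to 37.8 ± 5.75 RPKM (SD, n = 3), with a log2 change of 1.64 (adjusted p = 0.000201 from edgeR). Within the exocyst, Exoc2, Exoc3 and Exoc7 rose while Exoc4 and Exoc6b fell. Of these calls, that of Exoc3 held in 5 and that of Exoc7 in 6 of the 11 alternatives, and the other three in all of them.

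**Figure D4:**
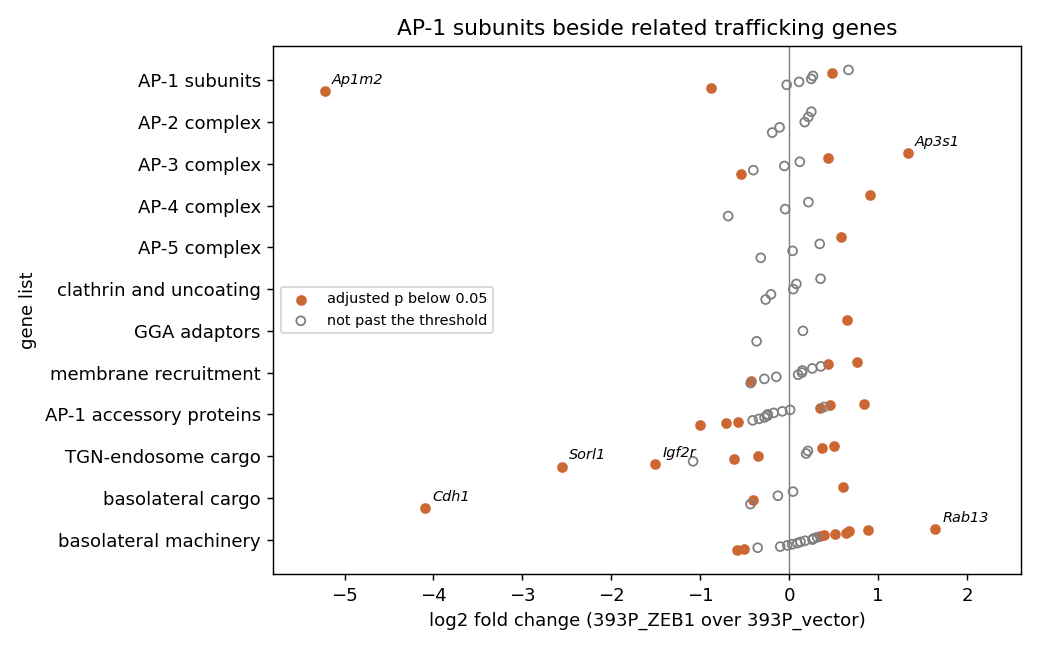
Fitted log2 fold change (393P_ZEB1 over 393P_vector) of each tested gene of the AP-1 complex and of 11 lists of related trafficking genes, filled where the adjusted p was below 0.05. Ap1m2 lies at -5.22, below every other gene plotted, followed by Cdh1 at -4.09, and Rab13 lies highest at 1.64.

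The genes whose pattern over the 6 samples was most like that of Ap1m2 were found by the root mean square difference of log2 CPM, each gene centred on its own mean, among 10103 genes with a mean of at least 5 CPM. They were Ctsw, Entpd3, Pkhd1, Thbd and Nfe2l3, at distances of 0.245, 0.280, 0.303, 0.326 and 0.346. Ctsw, a cathepsin, went from 37.6 to 1.07 RPKM and Thbd, the thrombin receptor thrombomodulin, from 41.1 to 1.25 RPKM. Entpd3 lies on chromosome 9, as Ap1m2 does. Between 2 and 4 of these 5 genes remained when each sample was left out. For Ap1s2 the nearest genes were Id2, Gnpda2, Fam164a, Tmem128 and Wac, at distances of 0.0435 to 0.0708, all with a higher level in 393P_vector replicate 3 than in replicates 1 and 2. A small distance says only that the levels moved alike over 6 samples.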

How the data were processed

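RNA was sequenced from 3 393P_vector and 3 393P_ZEB1 samples after a total RNA library kit of the SOLiD platform. The authors deposited a raw read count, an exon length and an RPKM value per gene for each sample. Aligner, counter, strand setting and treatment of reads shared by paralogs are not given in the sources used here. Groups were taken from the sample labels. The deposited counts were used for every test, and the RPKM that the authors deposited only as an alternative scale for shares.

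Counts were filtered with filterByExpr (minimum count 10), scaled by TMM and fitted over all 13892 genes with edgeR 4.0.16 (quasi-likelihood, R 4.3.3), with Benjamini-Hochberg adjustment and a threshold of 0.05. RPKM was recomputed from TMM-scaled libraries. At the depths found, 3 counts were between 0.0361 and 0.0561 CPM. The procedure was tested on simulated data with few changed genes and no outlying library, a milder setting than that of these samples. Alternatives were DESeq2 1.42.0 (size factors, Wald test), other filters, a replicate block and leaving out each sample. The rule for named genes took all AP-1 subunits, up to 4 genes per list past the threshold with an absolute log2 fold change of at least 1, Kif13a, Cdh1, Zeb1, Ap1ar, the mu and sigma chains of AP-2 and AP-3, and the 5 genes nearest in pattern to Ap1m2 and to Ap1s2. Other genes are named as examples of their lists, chosen after their values were seen. The members and lists were chosen with earlier results of these data known.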

Additional observations from a re-analysis of the deposited data

How the results depend on the processing

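Limits are set mainly by 3 samples a group and by 393P_vector replicate 3. Over the leave-one-out fits, the number of AP-1 subunits past the threshold ranged from 2 to 5 and that of related trafficking genes from 18 to 57. The share of all tested genes past it was 53.0% without 393P_vector replicate 3 and was not computed for the other alternatives. The Ap1m2 change relative to its chromosome ranged from -5.47 to -4.90, the difference in the Ap1s1 share of sigma transcripts from -0.983 to 0.592 percentage points, and the number of the 5 genes most like Ap1m2 that remained from 2 to 4. The log2 change turned sign for Ap1g2 (0.062 without 393P_vector replicate 1 and 0.078 without 393P_ZEB1 replicate 1, range -0.097 to 0.078) and, without 393P_vector replicate 3, for Ap1s1 (-0.025, range -0.025 to 0.22), Ap3m1 (0.033, range -0.60 to 0.033) and Ap3s2 (-0.029, range -0.029 to 0.21). From raw counts without length scaling, the Ap1m2 share of mu transcripts differed by -24.8 points, and the sigma shares by -0.173 for Ap1s1, 1.73 for Ap1s2 and -1.55 for Ap1s3. Such shares weight each gene by its exon length. This length was 1952 and 1727 bases for Ap1m1 and Ap1m2, and 1272, 3179 and 2871 bases for Ap1s1, Ap1s2 and Ap1s3. The cause of the sign turns with left-out samples was not tested. Replicate numbers are shared by the groups. The deviations of same-numbered samples correlated between -0.126 and 0.195, and those of different numbers between -0.12 and 0.157. With 3 same-numbered pairs, these overlapping ranges cannot decide whether the numbers pair the samples. With the replicate number as a block, 2 subunits and 28 related genes were past the threshold, and Ap1m2 and Ap1m1 changed by -5.25 and 0.48 on the log2 scale.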
